A study of Mus musculus with 3 samples.

Results

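The genes described here are the interferon-induced families and the Schlafens of mouse blood stem and progenitor cells. Members were taken by gene symbol alone, as rows named Ifi, Ifit, Ifitm, Oas, Gbp, Isg, Iigp, Igtp, Irgm, Mx or Slfn, with Rsad2, Usp18 and Bst2, and 71 of 24421 gene rows matched. RNA was sequenced from bone marrow hematopoietic stem and progenitor cells (HSPCs) in 3 control libraries, called libraries 1, 2 and 3 after their titles. HSPCs are the rare cells that renew the blood, and here they had been sorted for c-Kit and Sca-1 and against lineage markers. The mice were C57BL/6 with the genotype Cicflox/flox + tamoxifen, so both alleles of Capicua (Cic), a transcriptional repressor, were flanked by loxP sites and the drug had been given. The control label names no Cre, and it gives neither an age nor whether animals were pooled. The Capicua-deleted group of the study was not analysed here, so the values are those of 1 group and no contrast between genotypes was made. Where nothing says that the libraries came from separate animals, the spread between them may be technical.

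Interferons are secreted when cells sense viral or bacterial nucleic acids. Type I interferons and interferon gamma bind receptors that activate JAK kinases and STAT factors, and these switch on a large set of antiviral genes through short promoter elements. Stem cells are known to hold part of this set at a standing level without infection, and interferons can also drive resting blood stem cells into division. Schlafens are a mammalian family, several members of which are induced by interferon and linked to T cell quiescence and to the control of RNA and translation.

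The libraries held 30718562, 25097769 and 30032593 gene counts, in the order 1, 2, 3 that is kept for every trio of values. Levels are in CPM, the usual scaling of a gene's count to the gene total of its library, given as mean ± SD over the 3 libraries, and single genes are ranked against each other per kilobase (kb) of annotated exons, while bands, shares and sums of CPM describe counts without regard to length. A count of 0 allows up to 0.0977, 0.120 and 0.0999 CPM in the 3 libraries (3 counts each, counting error only). Cic itself lay at 168, 139 and 119.9 CPM, and because reads of the whole gene were counted together, these values check nothing about the exons between the loxP sites. All 7 HSPC marker genes, among them Kit, Flt3 and Hlf, were above 1 CPM in every library, with summed levels of 2976, 2745 and 2586 CPM.

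Most of the interferon-induced genes were expressed without any infection in the design. Of 71 members, 55 (77.5%) had a mean of at least 1 CPM, against 53.1% of all gene rows, and 62 had a count in every library, against 61.4%. Levels ran over a wide range, with 8 members at 100 CPM or more, 33 from 10 to 100, 14 from 1 to 10 and 16 under 1 CPM. Of these 16, 11 had some count and 5 (7.04%), against 29% of all gene rows, had none in any library. These 5 were Ifi202b, Ifi44l, Ifitm10, Oas1d and Slfn5os. Summed, the members took up 0.368% of library 1 (95% interval by the exact Clopper-Pearson method, 0.366 to 0.370%), 0.312% of library 2 (0.310 to 0.314%) and 0.341% of library 3 (0.339 to 0.343%), with counting error alone in each interval. Just 3 genes, Ifi203, Ifitm3 and Ifitm2, made up 37.8% of the summed mean CPM, and 10 genes made up 65.6%. Among the genes at 1 CPM or more, the median member lay at 9.12 CPM per kb and the median of all such genes at 6.42. In CPM, without the length, the order turned, with medians of 23.9 and 25.9.

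**Figure D1:**
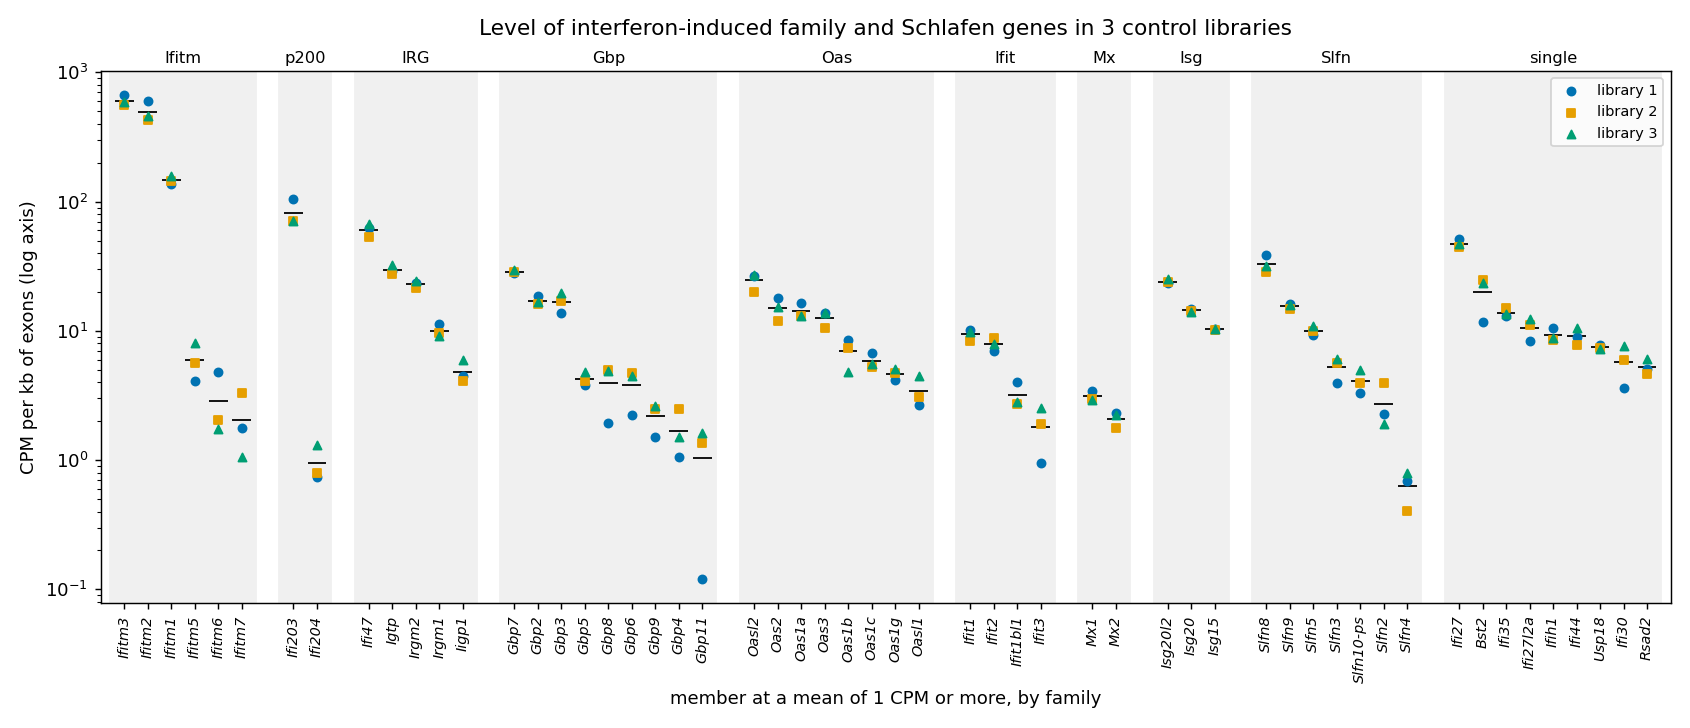
Level of the 55 members whose mean reached 1 CPM, as CPM per kb of annotated exons on a log axis, grouped by family; each gene has 1 point per library and a bar at the mean. Ifitm3 and Ifitm2 lie highest at 606 and 497 CPM per kb, and most other members lie between 1 and 60.8 CPM per kb.

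The promoters of the members carried the interferon response element more often than promoters at large. RefSeq promoter sequences (GRCm38.p6, 250 bases before to 50 after each start) were found for 52 members, with 62 entries. The interferon-stimulated response element (ISRE) was searched as GAAA, any 2 bases and GAAA, or, on the other strand, TTTC, any 2 bases and TTTC. It was present in 30 of 62 member promoters (48.4%), against 1131 of 32851 promoters in all (3.44%). The gamma-activated site (GAS) was searched as TTCNNNGAA, the same on both strands, and stood in 12 of 62 (19.4%) against 8.30% of all promoters. By gene, 24 of 40 members at 1 CPM or more had an ISRE match and 4 of 12 members below. The motifs can overlap each other, and a match is a description of the letters, not a proven site. Most of these families were named for their induction by interferon, so the share is not independent of how the list was drawn.

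The Ifitm genes, small membrane proteins that block viral fusion, were the most abundant family per length. Ifitm3 (chromosome 7, 141009586 to 141010770, mm10, minus strand) lay at 450.3, 379.7 and 402 CPM in libraries 1, 2 and 3, a mean of 606 ± 53.2 CPM per kb. Ifitm2 lay at 396, 279 and 302 CPM, or 497 ± 94.3 CPM per kb, and Ifitm1 at 151, 157 and 174 CPM, or 147 ± 10.7 CPM per kb. Ifitm3 and Ifitm2 were both highest in library 1. Their mean levels per kb overlapped within their spread, but Ifitm3 lay above Ifitm2 per kb in every library. Ifitm1 lay below both in every library. The Ifitm2 count is uncertain, since 48.5% of its 50-base words also occur in the overlapping transcript Gm45717 and other genes. The rest of the family was low. Ifitm5, a gene of bone-forming cells, had 97, 109 and 184 counts, Ifitm6 134, 46 and 47, Ifitm7 129, 197 and 75, and Ifitm10 none. The 3 low genes with counts did not share an order of libraries, as Ifitm5 was highest in library 3, Ifitm6 in library 1 and Ifitm7, the one of them on chromosome 16, in library 2.

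Of the 4 members from the p200 family of nuclear DNA-binding proteins, Ifi203 carried nearly the whole signal. Ifi203 (chromosome 1, 173920407 to 173942672, mm10) lay at 701, 472 and 478 CPM in libraries 1, 2 and 3, a mean of 550.3 ± 130.2 CPM. Library 1 stood above the other libraries, which were alike. The other 3 members were far lower, with Ifi204 at 2.64, 2.83 and 4.63 CPM, Ifi205 at 13, 13 and 52 counts and Ifi202b with no count, which allows at most 0.120 CPM. Per kb the means were 82.1 for Ifi203, 0.945 for Ifi204 and 0.213 for Ifi205. Of the 50-base words of Ifi205, 18.6% also occur in other genes, and 12.4% of those of Ifi203, so reads of this family can be dropped or misplaced.

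The 5 immunity-related GTPases among the members, a family that attacks the vacuoles of intracellular microbes, were all expressed. The highest per kb was Ifi47 (Irg47) at 153, 131 and 167 CPM, a mean of 60.8 ± 7.39 CPM per kb. Igtp followed at 29.6 ± 2.44 and Irgm2 at 23.0 ± 1.37 CPM per kb. Irgm1, which is needed for the function of blood stem cells during infection, lay at 65.8, 56.3 and 52.7 CPM (10.0 ± 1.16 CPM per kb) and Iigp1 at 25.9, 23.8 and 34.6 CPM (4.83 ± 0.986 CPM per kb). In 4 of the 5 genes library 2 was lowest, against 23.6% of all genes at 1 CPM or more, and Irgm1 was lowest in library 3. The family summed to 389, 346 and 409 CPM.

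The guanylate-binding proteins (Gbp), larger GTPases of the same defence, lie in groups on 2 chromosomes, and the highest per kb, Gbp7, Gbp2 and Gbp3, lie on chromosome 3. On chromosome 3 (142493978 to 142638008, mm10) Gbp7 lay at 158, 160.5 and 165 CPM, Gbp3 at 45.2, 55.2 and 64.0, Gbp2 at 46.9, 40.4 and 41.9 and Gbp5 at 25.3, 26.9 and 31.7 CPM. Per kb these were 28.7 ± 0.650, 16.8 ± 2.89, 17.1 ± 1.36 and 4.22 ± 0.502, so that Gbp2 and Gbp3 did not differ beyond their spread. Gbp2b, between them on the chromosome, had 9, 0 and 7 counts. On chromosome 5 (105014150 to 105346472) no Gbp gene had a mean above that of Gbp8, 3.93 ± 1.72 CPM per kb, which overlapped Gbp5 within the spread. Both Gbp7 and Gbp2b have an ISRE match, shown here in capitals in the 150 bases before each start, so the match did not go with the level in this pair. Their matches begin 53 and 137 bases before the start.
Gbp7, chr3:142530186-142530335, plus strand: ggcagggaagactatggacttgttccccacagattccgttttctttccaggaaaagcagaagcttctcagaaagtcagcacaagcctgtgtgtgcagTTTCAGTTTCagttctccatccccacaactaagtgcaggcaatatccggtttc
Gbp2b, chr3:142594697-142594846, plus strand: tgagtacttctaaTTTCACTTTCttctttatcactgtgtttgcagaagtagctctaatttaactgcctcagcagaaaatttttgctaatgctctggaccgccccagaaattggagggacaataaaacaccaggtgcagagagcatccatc

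Of the 6 chromosome 5 Gbp genes, 5 were lower in library 1 than in the other libraries, and those on chromosome 3 less so. Gbp6 lay at 13.2, 28.2 and 26.8 CPM in libraries 1, 2 and 3, Gbp8 at 6.67, 17.1 and 16.8, and Gbp4 at 7.91, 18.6 and 11.3 CPM. Gbp9 lay at 7.75, 12.7 and 13.6 CPM and Gbp11 at 0.326, 3.63 and 4.36 CPM (10, 91 and 131 counts). Library 1 was lowest in 5 of the 5 chromosome 5 genes at 1 CPM or more, against 44.3% of all such genes. The median difference of these 5 in log2(CPM + 0.5) was -1.03 from the mean of libraries 2 and 3. For the 4 chromosome 3 genes the median was -0.12, and it was -0.05 over all genes at 1 CPM or more. The chromosome 5 genes summed to 36.9, 80.9 and 73.8 CPM and the chromosome 3 genes to 276, 283 and 303 CPM. The sixth chromosome 5 gene, Gbp10, went the other way with 34, 17 and 26 counts and was left out at a mean of 0.883 CPM. Of its 50-base words 84.1% occur in other genes, chiefly Gbp6. Gbp11 reached a mean of 1 CPM only through libraries 2 and 3, where it was high. The 5 of 5 and its median therefore depend on that minimum. With the scaling of edgeR (TMM) or DESeq2 or without the ribosomal RNA precursor Rn45s, the chromosome 5 median was -0.98 each time and 5 of 5 stayed lower, while the chromosome 3 median was -0.07, -0.07 and -0.06 with 2 of 4 lower. With ERCC spike-in totals, where the median of all genes was -1.01, the medians were -1.99 (5 of 5 lower) and -1.11 (4 of 4 lower). These groups were formed after the values were seen, and the difference between them was not tested. Words shared with other genes reached 70.7% for Gbp6, 19.2% for Gbp11 and 18.1% for Gbp8. Macrophage and monocyte markers (4 of 7 at 1 CPM or more) summed to 52.4, 64.6 and 104 CPM, but they did not share an order. Csf1r (15.5, 28.0 and 35.3 CPM) and Ly6c2 (5.08, 13.5 and 31.5 CPM) were lowest in library 1, Cd68 (28.3, 21.5 and 35.5 CPM), C1qb and Adgre1 were lowest in library 2, and Fcgr1 and C1qa, at 14 counts or fewer, were highest in library 1. The part of such cells in the result was not tested, and fewer cells of a type and less RNA per cell cannot be told apart in these bulk samples.

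The oligoadenylate synthetases (Oas), which sense double-stranded RNA, were broadly expressed. Oasl2, a relative with ubiquitin-like repeats, was the highest per kb at 24.6 ± 4.07 (170, 127 and 173 CPM). Oas2 lay at 79.9, 53.2 and 68.7 CPM (15.1 ± 3.01 per kb), Oas1a at 31.1, 24.5 and 24.5 CPM (14.2 ± 2.01 per kb) and Oas3 at 97.5, 74.3 and 96.9 CPM (12.7 ± 1.87 per kb). These 3 lay within each other's spread per kb, though Oas2 lay above Oas3 per kb in every library. Oas1b, Oas1c, Oas1g and Oasl1, a brake on interferon production, lay at 13.8 ± 3.77, 14.1 ± 1.96, 10.9 ± 1.10 and 8.89 ± 2.54 CPM. Oas1b is annotated as a polymorphic pseudogene, the state of this virus-resistance gene in C57BL/6. The other 4 genes were near 0, with Oas1h at 5, 23 and 32 counts, Oas1e at 0, 1 and 2, Oas1f at 0, 1 and 0 and Oas1d at none. In 6 of 8 Oas genes at 1 CPM or more library 1 lay above the mean of the others, with a median of 0.26 in log2, against 5662 of 12965 genes in all with a median of -0.05. With ERCC spike-in totals as the scale the Oas median was -0.71 and 0 of 8 lay above, against a median of -1.01 and 313 of 12965 over all genes.

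The promoters of Oas1a and Oas1g share a run of 56 bases, and other genes hold 57.6% and 45.7% of their 50-base words, so the counts of this pair are uncertain. Their overlapping ISRE matches (capitals) begin 20 and 14 bases before the start of Oas1a and 18 and 12 before that of Oas1g. Oasl2, the highest of the family per kb, is shown for contrast and has no match in its promoter window. The sequences are the 120 bases before each start.
Oas1a, chr5:120907526-120907645, minus strand: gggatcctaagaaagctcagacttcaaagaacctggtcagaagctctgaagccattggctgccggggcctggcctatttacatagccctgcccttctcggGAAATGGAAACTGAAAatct
Oas1g, chr5:120887614-120887733, minus strand: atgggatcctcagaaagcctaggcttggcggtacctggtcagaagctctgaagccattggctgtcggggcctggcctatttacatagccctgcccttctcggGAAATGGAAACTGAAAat
Oasl2, chr5:114896814-114896933, plus strand: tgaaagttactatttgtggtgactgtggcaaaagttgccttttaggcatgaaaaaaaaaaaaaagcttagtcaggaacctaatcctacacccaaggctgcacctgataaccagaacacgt

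The Ifit genes, whose proteins bind foreign RNA ends, were moderate. Ifit1 lay at 27.0, 22.2 and 26.2 CPM (9.47 ± 0.962 per kb) and Ifit2 at 27.3, 34.6 and 31.1 CPM (7.90 ± 0.927 per kb), which did not differ beyond their spread per kb. Ifit1bl1 followed at 3.16 ± 0.719 CPM per kb, while Ifit1bl2 and Ifit3b stayed under 1 CPM. Ifit3 was lowest in library 1, at 1.66, 3.31 and 4.40 CPM (51, 83 and 132 counts). Other genes hold 51.2% of the words of Ifit3 and 45.0% of those of its copy Ifit3b, and their promoters share a run of 119 bases, shown here within the 200 bases before each start. Both hold the same pair of ISRE matches (capitals), and the deposited counts cannot fully separate the pair.
Ifit3, chr19:34583329-34583528, plus strand: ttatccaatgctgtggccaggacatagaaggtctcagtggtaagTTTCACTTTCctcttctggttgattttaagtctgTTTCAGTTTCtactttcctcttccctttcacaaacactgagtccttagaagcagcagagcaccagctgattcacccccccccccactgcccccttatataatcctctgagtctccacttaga
Ifit3b, chr19:34607757-34607956, plus strand: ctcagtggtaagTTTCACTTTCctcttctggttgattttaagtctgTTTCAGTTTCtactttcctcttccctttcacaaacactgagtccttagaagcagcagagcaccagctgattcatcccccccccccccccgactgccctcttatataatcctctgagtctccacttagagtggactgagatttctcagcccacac

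Isg15 and its protease Usp18 were among the steadiest members. Isg15, a ubiquitin-like protein that is joined to other proteins after interferon, lay at 7.78, 7.65 and 7.82 CPM, or 10.3 ± 0.120 CPM per kb. Usp18, which removes Isg15 and also blocks the type I receptor, lay at 21.8, 20.5 and 20.2 CPM (7.47 ± 0.296 per kb). The exonuclease genes Isg20 and Isg20l2 lay at 26.8 ± 0.712 and 69.7 ± 2.35 CPM, though Isg20l2 is named for its likeness to Isg20 and acts in ribosomal RNA processing. In the chi-square test against counting noise, these 4 genes did not pass. The Isg15 promoter carries overlapping ISRE matches that begin 78, 72 and 66 bases before the start, in capitals within the last 100 bases.
Isg15, chr4:156200819-156200918, minus strand: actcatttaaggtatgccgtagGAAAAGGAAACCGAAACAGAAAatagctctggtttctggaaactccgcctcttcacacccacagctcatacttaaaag

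Single antiviral genes lay at middle levels. Ifih1, which encodes the RNA sensor MDA5, lay at 86.0, 69.6 and 72.2 CPM, Ifi27 at 74.9, 64.8 and 68.4, and Ifi44 at 55.2, 47.9 and 64.5 CPM. Per kb these were 9.30 ± 1.08, 47.3 ± 3.49 and 9.12 ± 1.36, so Ifi27 stood above the other two in every library. Ifi35 lay at 23.9 ± 1.73 CPM, Rsad2, the antiviral enzyme viperin, at 22.7 ± 3.14 CPM, and Mx1 and Mx2, dynamin-like GTPases, at 11.8 ± 1.09 and 7.57 ± 1.04 CPM. C57BL/6 mice carry a defective Mx1, and Mx2 is annotated as a polymorphic pseudogene, so these counts report RNA rather than working protein. Bst2, which tethers viruses to the cell and also marks plasmacytoid dendritic cells, was lowest in library 1, at 10.6, 22.3 and 21.2 CPM. Of the other 6 dendritic cell markers, Siglech (14, 49 and 40 counts) and Cd209a (3, 24 and 10 counts) were also lowest in library 1. Tcf4 was highest there, Clec9a (4.20, 4.14 and 4.63 CPM) and Xcr1 (5.44, 6.10 and 5.59 CPM) moved little, and Itgax (3.03, 3.27 and 5.03 CPM) was highest in library 3. Over the whole dendritic cell list, which includes Bst2, 6 of 7 genes reached 1 CPM and none was at 0, and the sum of 297, 267 and 261 CPM was mostly Tcf4 (241 CPM), a gene that progenitors express too. The part of dendritic cells in the Bst2 level was not tested. Ifi30, a lysosomal reductase gene of antigen-presenting cells, was also lowest in library 1 at 3.52, 5.86 and 7.56 CPM. Ifi27l2a lay at 4.90 ± 0.943 CPM, and Ifi27l2b had 1, 14 and 1 counts.

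The Schlafens, 7 of 10 of which reached 1 CPM, lie in 1 gene cluster on chromosome 11 (82942341 to 83286726, mm10). Slfn8 lay at 157, 117 and 129.7 CPM in libraries 1, 2 and 3 (32.9 ± 4.99 CPM per kb), Slfn9 at 96.3, 88.3 and 94.8 CPM (15.6 ± 0.715 per kb) and Slfn5 at 58.4, 62.9 and 68.5 CPM (10.0 ± 0.797 per kb). These long Schlafens, which carry a helicase-like part, were ordered the same way per kb in every library. Slfn3 and the pseudogene Slfn10-ps followed at 5.23 ± 1.11 and 4.10 ± 0.840 CPM per kb. Slfn2, whose loss makes T cells and monocytes leave quiescence and die, lay at 3.78, 6.53 and 3.16 CPM (2.70 ± 1.08 per kb) and Slfn4, a gene of myeloid cells, at 84, 40 and 94 counts (0.627 ± 0.201 per kb). Slfn1, the founding member, first described in thymocytes, had 1 count in each library, below the 3-count floor, and Slfn14 had 0, 0 and 9. The antisense row Slfn5os had no count, but 64.4% of its exon bases overlap Slfn5 or Unc45b. Other genes, chiefly Slfn5, hold 55.7% of its words, so its lack of counts is uncertain. Reads of Slfn8, Slfn9 and Slfn10-ps can be misplaced among each other, since 14.6%, 11.9% and 19.7% of their words are shared.

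An ISRE match was found in the promoters of Slfn5, Slfn8 and Slfn9, the 3 highest Schlafens per kb, and in none of the entries of Slfn1, Slfn2, Slfn3, Slfn4 and Slfn14. This split was noticed after the levels were known, and no match says only that these letters are not in the window. The 160 bases before the start are given for these 3 genes and for Slfn1 and Slfn2. Expression at 1 CPM or more did not follow the match, since Slfn2, Slfn3 and Slfn4 reached it without one. The matches, in capitals, begin 48 bases before the start in Slfn8, 45 in Slfn9 and 155 in Slfn5. Slfn8 has a further promoter entry with the same match farther from its start, and the Slfn8 and Slfn9 sequences share a run of 20 bases.
Slfn8, chr11:83020811-83020970, minus strand: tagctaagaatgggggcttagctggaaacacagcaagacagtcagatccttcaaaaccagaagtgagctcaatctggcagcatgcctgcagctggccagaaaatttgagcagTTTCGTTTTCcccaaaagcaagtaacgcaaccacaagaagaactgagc
Slfn9, chr11:82991831-82991990, minus strand: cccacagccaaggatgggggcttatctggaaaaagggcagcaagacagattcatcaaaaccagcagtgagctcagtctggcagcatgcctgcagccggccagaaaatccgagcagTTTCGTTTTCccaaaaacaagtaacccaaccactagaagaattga
Slfn5, chr11:82951942-82952101, plus strand: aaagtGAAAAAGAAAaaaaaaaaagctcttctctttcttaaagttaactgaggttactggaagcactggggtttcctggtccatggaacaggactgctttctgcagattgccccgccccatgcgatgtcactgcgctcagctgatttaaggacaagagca
Slfn1, chr11:83116660-83116819, plus strand: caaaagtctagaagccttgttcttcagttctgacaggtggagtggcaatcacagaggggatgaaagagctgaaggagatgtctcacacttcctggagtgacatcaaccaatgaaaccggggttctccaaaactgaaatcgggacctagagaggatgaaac
Slfn2, chr11:83064952-83065111, plus strand: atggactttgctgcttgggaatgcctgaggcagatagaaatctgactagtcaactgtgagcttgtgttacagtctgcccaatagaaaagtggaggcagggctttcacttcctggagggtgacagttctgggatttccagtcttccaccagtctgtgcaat

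Many members are neighbours on a chromosome. Joining members less than 1 Mb apart gave 7 groups of 4 or more that held 46 of the 71 members. Neighbours in several groups differed widely per kb, as Ifi203 beside Ifi202b, Gbp7 and Gbp3 beside Gbp2b, Oas1a beside Oas1d, and Slfn8 a few genes from Slfn1. In the Schlafen cluster the 3 highest genes per kb, Slfn5, Slfn9 and Slfn8, stood next to each other.

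**Figure D2:**
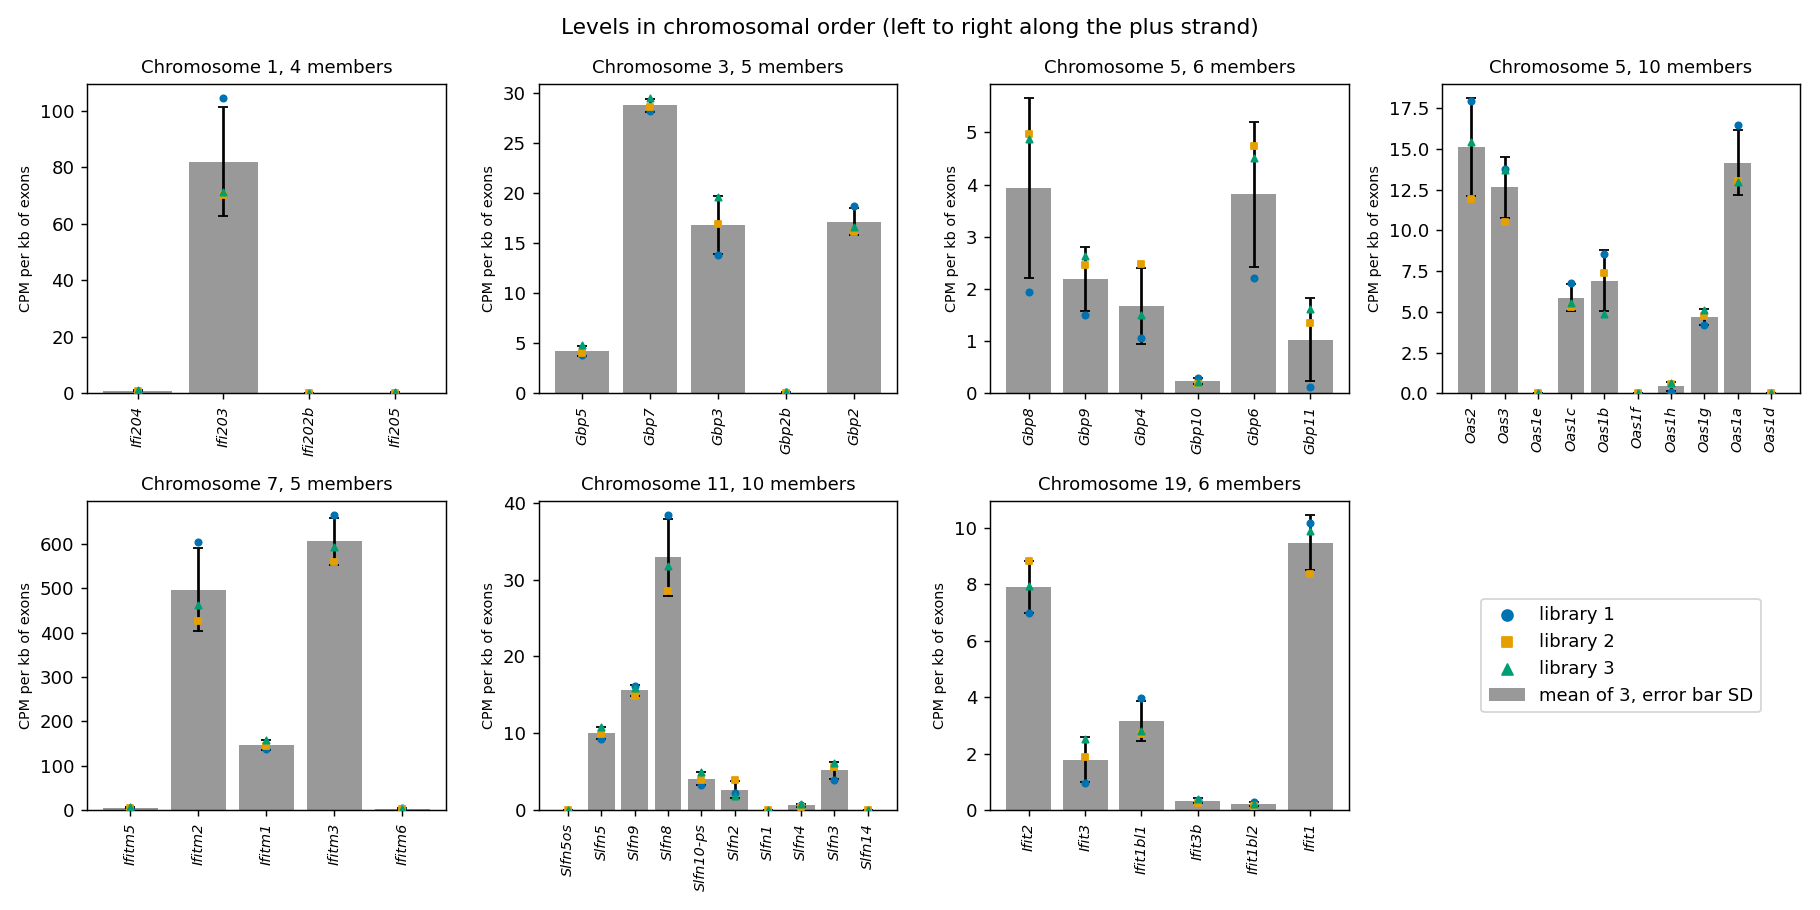
Mean level in CPM per kb of exons for members of the 7 chromosomal groups of at least 4, in chromosomal order, with SD over 3 libraries as error bars and 1 point per library. Ifi203 at 82.1 stands beside Ifi202b at 0, while the chromosome 5 Gbp genes are all low, from 0.228 to 3.93, and the lowest chromosome 7 Ifitm gene is Ifitm6 at 2.86; in the plot library 1 lies lowest for 5 of the 6 Gbp genes on chromosome 5.

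The question of how far the control libraries differ bears on any later comparison with them. In a chi-square test of the counts against the library totals, adjusted by Benjamini-Hochberg over all genes at 1 CPM or more, 49 of 55 members (89.1%) differed between libraries beyond counting noise, against 82.6% of all 12965 genes, so the members' share was near the background. The 6 that did not pass were Gbp7, Isg15, Isg20, Isg20l2, Mx1 and Usp18. Without library 1 the number was 31 of 56, against 51.4% of all genes. In edgeR's quasi-likelihood fit, 0 members were called as spreading more than genes of similar abundance after Benjamini-Hochberg adjustment, where 1 gene in all was (0.00771%). DESeq2 marked 0 members among 30 genes in all as dispersion outliers. At an unadjusted p under 0.05, 9 of 55 members (16.4%) passed in edgeR against 4.56% of all genes, and these were Gbp4, Gbp6, Gbp8, Gbp11, Bst2, Ifi203, Ifitm2, Oas2 and Oasl2.

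A spread of more than 2-fold between the highest and the lowest library was seen in 9 of 55 members (16.4%), against 8.70% of all genes. They were Gbp4, Gbp6, Gbp8, Gbp11, Bst2, Ifi30, Ifit3, Ifitm6 and Ifitm7, and 7 of them were lowest in library 1, as were 50.7% of the 1128 genes that spread this far. With DESeq2 size factors the number was 6 (10.9%, against 8.49% of all genes), without Bst2, Ifi30 and Gbp6, whose folds lie close to 2. Without library 1 it was 2 of 56 (3.57%, against 2.53% of all genes). By pairs of libraries, 6 members lay over 2-fold apart between libraries 1 and 2 (5.04% of all genes), 5 between libraries 1 and 3 (5.18%) and 1 between libraries 2 and 3 (2.40%). Over all 55 members, 8 (14.5%) were highest in library 2, against 35.6% of all genes, and 26 (47.3%) were highest in library 3, against 32.5%. Library 2 was lowest for 23 members (41.8%), against 23.6%, and library 1 for 23 (41.8%), against 44.3%. The median member lay -0.07 from the mean of the other libraries in library 2 and 0.11 in library 3, where the medians of all genes were 0.05 and 0.00, so these shifts were small. All 5 neutrophil markers were lowest in library 2 as well, with a summed level of 166, 39.0 and 90.5 CPM (all at 1 CPM or more). T and NK cell markers (2 of 7, with Cd3e at 0, 0 and 2 counts) summed to 19.1, 7.45 and 11.1 CPM. That sum was mostly Cd4 (15.2, 5.02 and 6.69 CPM). Klrb1c (1.60, 1.71 and 2.56 CPM) was lowest in library 1, and Cd8a (7, 13 and 9 counts) was highest in library 2. B cell markers (4 of 4) summed to 43.7, 46.8 and 46.1 CPM and erythroid markers (2 of 4) to 22.4, 16.4 and 12.4 CPM. Within neither of these lists did the genes share an order of libraries. The part of these cells in the members' levels was not tested.

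**Figure D3:**
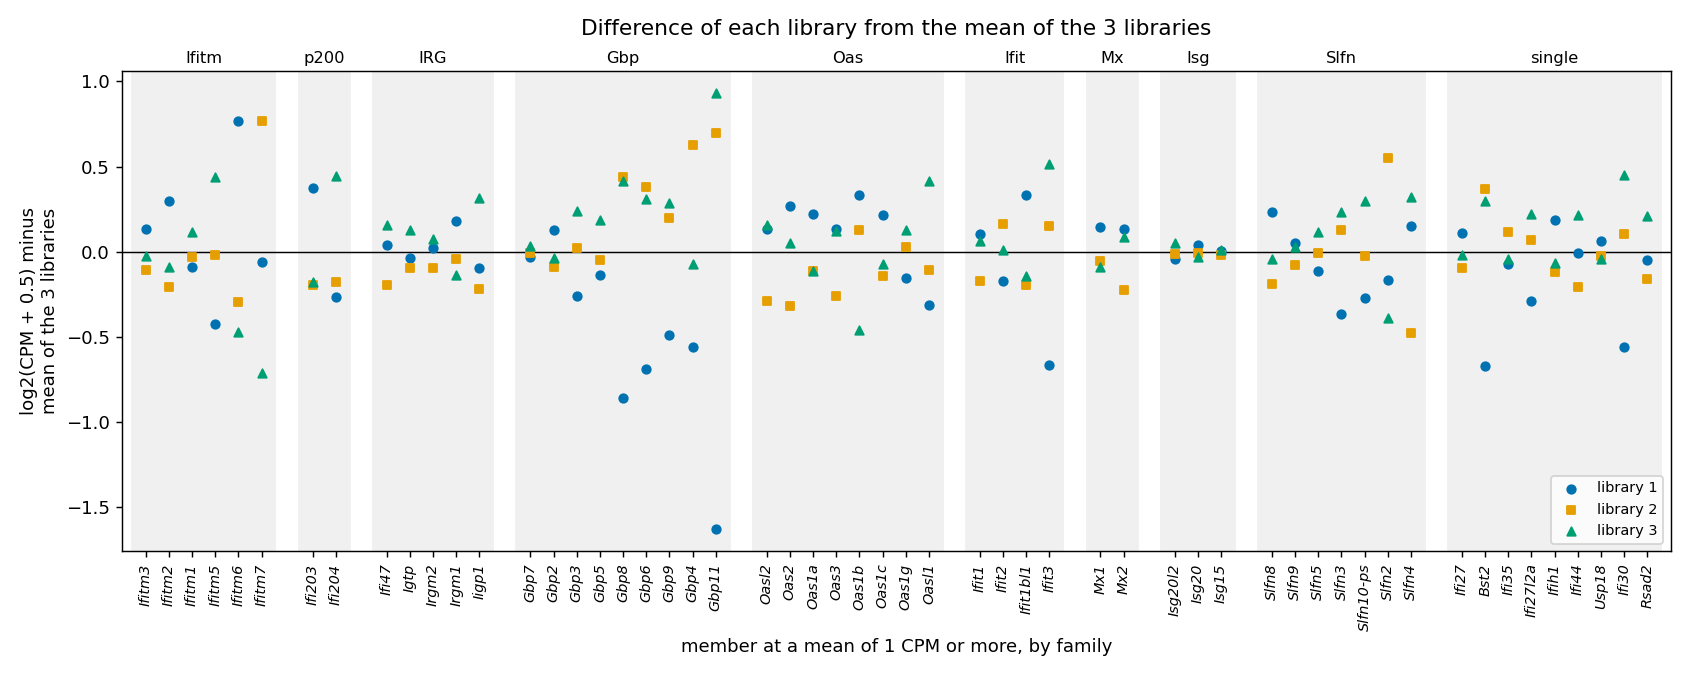
Difference of each library from the mean of the 3 libraries in log2(CPM + 0.5), for the 55 members whose mean reached 1 CPM, grouped by family. Most points lie close to 0, while Gbp4, Gbp6, Gbp8, Gbp9 and Gbp11 lie low in library 1 and Isg15, Isg20 and Isg20l2 hardly spread.

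RNA of most pathway genes upstream of the members was counted, but little or none of the interferons themselves. Shared words were measured for the members only, so reads of closely alike interferon genes could have been dropped unseen. Of 21 interferon genes, 15 had no count in any library and 1, Ifnk, reached 1 CPM, at 1.14, 2.47 and 1.37 CPM. Ifnb1 had 0, 1 and 0 counts and Ifng 0, 0 and 1. Of 6 receptor genes 5 reached 1 CPM. The type I receptor chains Ifnar2 and Ifnar1 lay at 208, 222 and 236 CPM and at 122, 109.9 and 99.8 CPM, and the interferon gamma receptor chains Ifngr1 and Ifngr2 at 87.2, 81.1 and 96.7 CPM and at 37.9, 27.5 and 32.5 CPM. Ifnlr1, the receptor of interferon lambda, had 6, 0 and 40 counts. All 6 transducers were expressed, with Jak1 at 431 ± 19.3, Jak2 at 123 ± 13.2 and Tyk2 at 50.1 ± 2.37 CPM, and Irf9, a DNA-binding factor of the pathway, at 90.3, 68.9 and 77.3 CPM.

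Of 9 interferon regulatory factors all reached 1 CPM, with Irf9, Irf3 and Irf1 highest per kb (14.6, 13.9 and 13.6). Irf7, the factor that amplifies type I interferon production, was highest in library 1 at 22.3, 9.88 and 11.0 CPM and was the 1 factor with more than a 2-fold spread. All 12 nucleic acid sensors reached 1 CPM, led per kb by Eif2ak2 (32.96), which encodes the kinase PKR, Tmem173 (29.4), which encodes STING, and Aim2 (24.7), with Tlr9 lowest at 0.530. Of 10 brakes 9 did, led per kb by Irf2bp2 (103), Ptpn6 (32.0) and Samhd1 (23.2), while Socs1 had 30, 8 and 35 counts. Of 30 other interferon-induced genes 30 reached 1 CPM, led per kb by Ly6e (227), Lgals3bp (98.5) and Ly6a (85.3), which encodes the sort marker Sca-1, and lowest for the chemokine Cxcl9 (0.944). In the chi-square test 5 of 5 tested receptors, 6 of 6 transducers, 9 of 9 regulatory factors, 11 of 12 sensors, 9 of 9 brakes and 26 of 30 induced genes differed between libraries, against the same 82.6% of all genes. Over 2-fold spreads were found in 1 of the 30 induced genes, which is Irf7 again, since the lists share some genes.

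**Figure D4:**
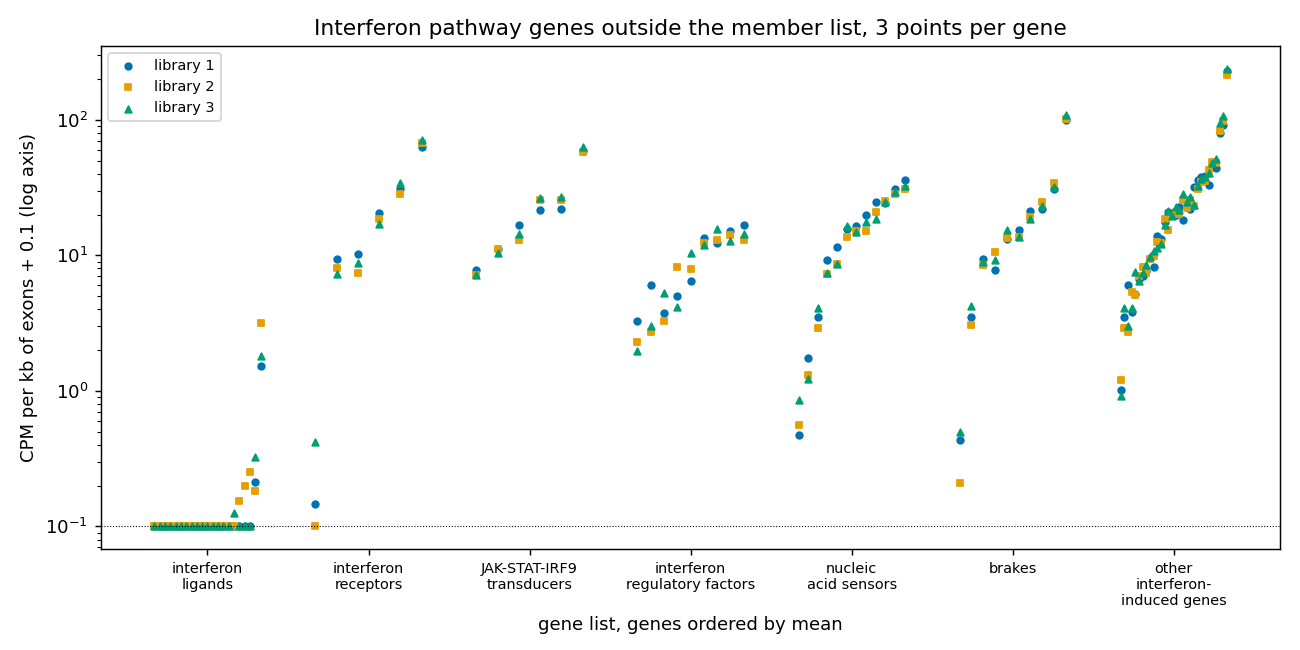
Level of interferon pathway genes by list, as CPM per kb of exons plus 0.1 on a log axis, with 3 points per gene, 1 for each library; the dotted line marks a count of 0. Interferon genes other than Ifnk, at a mean of 2.06 CPM per kb, sit at or near the line, with 15 of 21 at 0 in every library. Of the receptors 5 of 6, and of the transducers 6 of 6, lie well above the line.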

How the data were processed

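For each library the authors deposited 1 table of raw counts by gene symbol. Per the submitters' processing notes, the tools were TopHat2 2.0.9, HTSeq and DESeq2, and the build mm10. No source used here gives the gene model or whether counting used strand, so a gene and an antisense or overlapping partner cannot be told apart. Per the labels' protocols, cDNA was amplified from small amounts of RNA with poly(A) and random priming, so counts are not independent molecules. The 92 ERCC and 5 category rows were left out. CPM used gene totals of 25097769 to 30718562, and logs used log2(CPM + 0.5). Genes whose mean reached 1 CPM were tested by chi-square (2 degrees of freedom) and with an intercept-only, robust edgeR fit with TMM factors (F test of each quasi-dispersion over the trend), Benjamini-Hochberg adjusted, threshold 0.05. Both were tested on simulated data, where the edgeR fit missed most genes changed 2-fold in 1 library. In the libraries themselves it did not call Gbp11 (log2 range 2.56, edgeR adjusted p 0.984). Nor did it call the erythroid marker Slc4a1 (log2 range 2.82, edgeR adjusted p 0.670). Its lack of calls therefore does not exclude spreads of 2-fold or well above. Exon lengths, coordinates and shared 50-base words came from GENCODE M21 (GRCm38, the assembly of mm10), which held all 71 members and 98.4% of gene rows. Promoters came from RefSeq.

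Members and lists were chosen with earlier results of these data known. The rule named members whose mean reached 5 CPM, the highest and lowest of each family, and the 5 of largest range among them. Other members were named after their values were seen. Alternatives were TMM and DESeq2 size factors, totals without Rn45s, other minima and pseudocounts, levels per kb, another edgeR setting, DESeq2 dispersions, and leaving out each library. Spike-in totals and an edgeR fit on plain gene totals were added after seeing the data. Software was R 4.3.3, edgeR 4.0.16, DESeq2 1.42.0, Python 3.11.15, SciPy 1.17.1 and pandas 2.3.3.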

Additional observations from a re-analysis of the deposited data

Results flagged for a closer look

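The ERCC spike-in rows, synthetic RNAs that are no part of the cells, held counts although the labels' protocols name no spike-in. They came to 1.48%, 0.954% and 0.582% of gene counts in libraries 1, 2 and 3 (455900, 239355 and 174913 counts), far above what a count of 0 allows. Scaled to these totals, 54 of 55 members lay above the mean of the other libraries in library 3, as did 12720 of 12965 genes, and 50 of 56 members spread over 2-fold, against 83.6% of all genes. The labels do not say whether equal amounts were added, and the cause was not tested.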

How the results depend on the processing

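The number of members at 1 CPM or more stayed between 54 and 60 under every alternative run. The number of members differing beyond counting noise kept within 1.5 times of 49 except without library 1. Leaving out 1 library gave 31 to 44, where 51.4 to 67.3% of all genes differed. The number spreading over 2-fold was 2 to 6 when 1 library was left out (2.53 to 5.28% of all genes). It was 5 of 46 at a minimum of 5 CPM (3.22% of all genes) and 50 with spike-in totals (83.6%). The edgeR and DESeq2 variability tests called 0 members in all 12 settings, and this lack of calls does not exclude wide spreads. The median member level, 4.62 in log2(CPM + 0.5), was 4.76 without Rn45s, 4.87 at a minimum of 5 CPM and 4.12 with no minimum, where other genes are tested, and 3.18 per kb, which is another scale. Of 53 named members, 17 moved by over 1 SD without Rn45s (at most 1.11 times) and 12 with spike-in totals (at most 1.19 times). None did with TMM factors or DESeq2 size factors. With so few libraries, leaving out 1 cannot move a mean by over 1 SD, so those runs cannot decide this. No paired analysis was possible because there is 1 group. Depth limits members with few counts, such as Slfn1 and Oas1f.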

Other observations

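Relatives of the families that the symbol rule does not take ranged from no count to over 200 CPM. These genes were picked with their values in view. Of further p200 genes, Mndal lay at 231, 179.9 and 216 CPM, Pyhin1 at 8.17, 12.9 and 15.3 and Mnda at 24, 29 and 51 counts. Of further GTPases, Irgq lay at 71.5 ± 3.83 CPM and Gm4951 at 15.7 ± 3.70 CPM, while Gvin1 and Irgc1 had no count in any library. The Schlafen-like gene Slfnl1 had 36, 26 and 29 counts. Trim30d and Trim30b, both relatives of the interferon-induced Trim30a, were highest in library 1, at 52.9, 39.3 and 37.2 CPM and at 26.5, 17.0 and 19.8 CPM.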
